A study of Mus musculus with 8 samples.

Results

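Calcium/calmodulin-dependent protein kinase II (CaMKII) is encoded by 4 genes, Camk2a, Camk2b, Camk2d and Camk2g, and their exon array signals were compared between wild type and Nova2 knockout (Nova2 KO) mouse cortex. Probe sets were chosen where the platform annotation named exactly 1 of these genes, which gave 143 of 391597 probe sets on the array, or 143 of the 228454 that named a single gene. Camk2a had 33 probe sets, Camk2b 33, Camk2d 48 and Camk2g 29. Cortex was taken from CD1 mice at postnatal day 10. The wild type group held 4 mice and the Nova2 KO group 4 mice, with total RNA of 1 mouse on each array. How the Nova2 allele was made, whether wild type mice were littermates and whether the loss spans the whole body are not given in the sources used here. Nova2 binds RNA in neurons and steers the choice of exons, so the comparison asks whether the level or the exon use of these kinase genes depended on it.

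CaMKII is a large holoenzyme of many subunits that is switched on by calcium-bound calmodulin and then phosphorylates itself, which keeps it partly active after calcium has fallen. The alpha subunit (Camk2a) is typical of excitatory forebrain neurons and is needed for long-term potentiation. The beta subunit (Camk2b) also binds actin filaments in spines, and the gamma and delta subunits (Camk2g and Camk2d) are found in many tissues. All 4 transcripts are known for alternative splicing in the variable linker between the kinase and association domains. Which exon a probe set of this array covers was not analysed here, and the 4 genes are close paralogs, so a probe may bind RNA of more than 1 of them.

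An exon array reads several stretches along each gene. Values are log2 signals of probe sets, with a floor at 4. Probe sets averaging above 5.86 log2 over the 8 arrays, the 25th percentile on the array, were kept. The gene value of an array is the median over the kept probe sets of the gene, and the within-gene index is the log2 signal of a probe set after subtracting its gene's value on that array. A call means an adjusted p under 0.05 (limma, Benjamini-Hochberg over all genes or probe sets). The arrays had medians of 7.02 to 7.37 log2, with the lowest in wild type 4 (7.02) and Nova2 KO 4 (7.06). As a check of the labels, Nova2 probe set 5294108 lay between 8.53 and 8.87 log2 in wild type and between 6.28 and 7.26 log2 in Nova2 KO, a difference of -1.82 log2 (SE 0.22, limma adjusted p = 0.0786). The other 15 Nova2 probe sets differed by -0.29 to 0.70 log2.

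Of the 143 probe sets, 135 were kept: 31 for Camk2a, 33 for Camk2b, 42 for Camk2d and 29 for Camk2g. The 8 below the filter were 2 of Camk2a, 5122903 (5.71 log2 in wild type against 5.69 log2 in Nova2 KO) and 5497170 (5.37 against 5.45 log2), and 6 of Camk2d. The Camk2d ones were 4315456, 4664047, 4970003, 5336673, 5357947 and 5505523, at 4.65 to 5.75 log2 in wild type. Among these 8, 4970003 had the widest gap, with 5.51 log2 in wild type against 4.69 log2 in Nova2 KO. Its groups overlapped, and Nova2 KO 3 lay at the floor (4.00 log2).

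None of the 4 gene values passed the test. Over all genes, 0.208% passed (25 of 11992), and 11.6% had an unadjusted p under 0.05 against 1 of the 4 here, Camk2a. All 4 were lower in Nova2 KO by some size, as were 44.6% of all genes, but the sign of Camk2d and Camk2g turned under other settings given with each gene. None of the 4 had groups without overlap, which 7.56% of all genes had. The median difference over all genes was 0.022 log2.

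Camk2a was the member with the widest gap between the groups. Its gene value was 11.70, 11.76, 11.55 and 11.93 log2 in wild type 1 to 4, and 11.56, 11.32, 11.32 and 11.33 log2 in Nova2 KO 1 to 4. Nova2 KO 2, 3 and 4 lay together below every wild type array, while Nova2 KO 1 lay just above wild type 3, so the groups touched. The means were 11.73 ± 0.16 log2 (SD, n = 4) and 11.38 ± 0.12 log2 (SD, n = 4). The difference was -0.35 log2 (SE 0.11, 95% interval -0.59 to -0.12, limma unadjusted p = 0.00685, adjusted p = 0.266). On a linear scale the wild type value was 1.28-fold that of Nova2 KO. By unadjusted p, Camk2a ranked 309 among the 11992 genes. With the mean over probe sets as gene value the groups did not overlap, at 11.19 to 11.27 log2 in wild type and 10.80 to 11.01 log2 in Nova2 KO, and the difference was -0.31 log2 (limma adjusted p = 0.136, within 0.106 to 0.578 over the 18 other settings).

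Camk2b was at 11.38, 11.35, 11.36 and 11.14 log2 in wild type 1 to 4 and at 11.20, 11.03, 11.28 and 11.09 log2 in Nova2 KO 1 to 4. Wild type 4 was well below wild type 1 to 3 and fell within the Nova2 KO range, so the groups overlapped. The difference was -0.16 log2 (SE 0.10, 95% interval -0.38 to 0.058, limma adjusted p = 0.575). With the filter at the 50th percentile it was -0.046 log2, a smaller size by more than 1.5 times, again without a call.

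Camk2d was at 9.13, 9.38, 9.32 and 8.75 log2 in wild type 1 to 4 and at 9.31, 9.29, 8.88 and 8.91 log2 in Nova2 KO 1 to 4. Its spread within each group (SD 0.29 and 0.23 log2) was the widest of the 4 genes and well above the difference of -0.048 log2 (SE 0.15, 95% interval -0.38 to 0.29, limma adjusted p = 0.94). The sign depended on single arrays: the difference was 0.031 log2 if wild type 2 was dropped, 0.011 log2 for wild type 3, 0.023 log2 for Nova2 KO 3, 0.015 log2 for Nova2 KO 4 and -0.18 log2 for wild type 4, in each case without a call.

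Camk2g was at 10.26, 10.28, 10.32 and 10.23 log2 in wild type 1 to 4 and at 10.38, 10.22, 10.18 and 10.02 log2 in Nova2 KO 1 to 4. The wild type arrays lay close together (SD 0.037 log2) and the Nova2 KO arrays spread around them (SD 0.15 log2). The gene value differed by -0.07 log2 (SE 0.099, 95% interval -0.29 to 0.15, limma adjusted p = 0.832). With the mean over probe sets it differed by 0.094 log2 (limma adjusted p = 0.682), so median and mean differed in sign and no direction is given for Camk2g as a gene. Dropping Nova2 KO 1 gave a median-based difference of -0.13 log2, and dropping Nova2 KO 4 gave -0.011 log2.

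**Figure D1:**
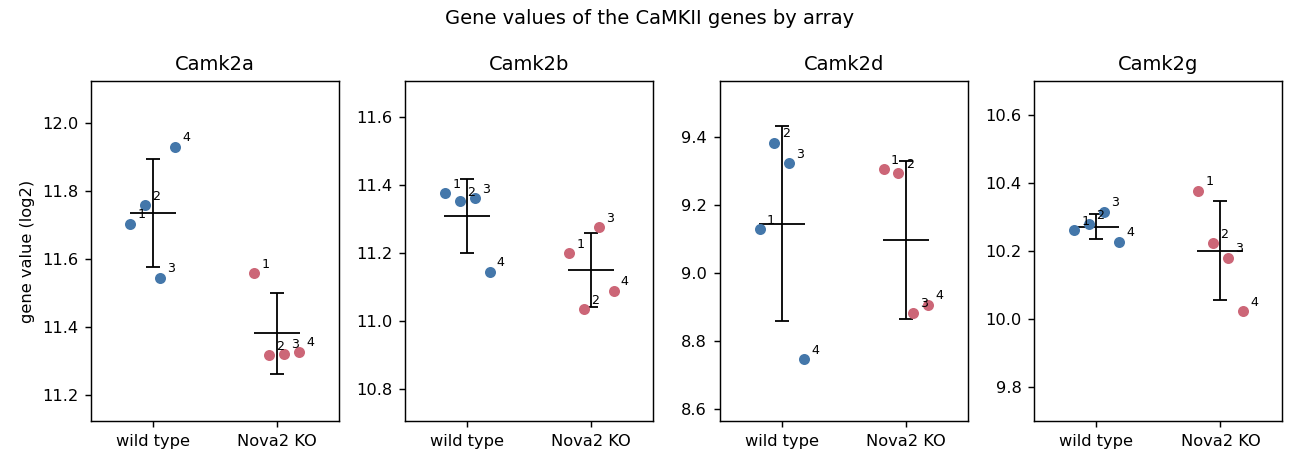
Gene value (log2, median over the kept probe sets) of each CaMKII gene on the y axis for the 4 wild type and 4 Nova2 KO arrays, with the number of the array beside each point, and the mean (long bar) ± SD. Each panel spans 1 log2. Nova2 KO 2, 3 and 4 lie for Camk2a at 11.32 to 11.33 log2, and in the other 3 genes the groups overlap more widely.

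**Figure D2:**
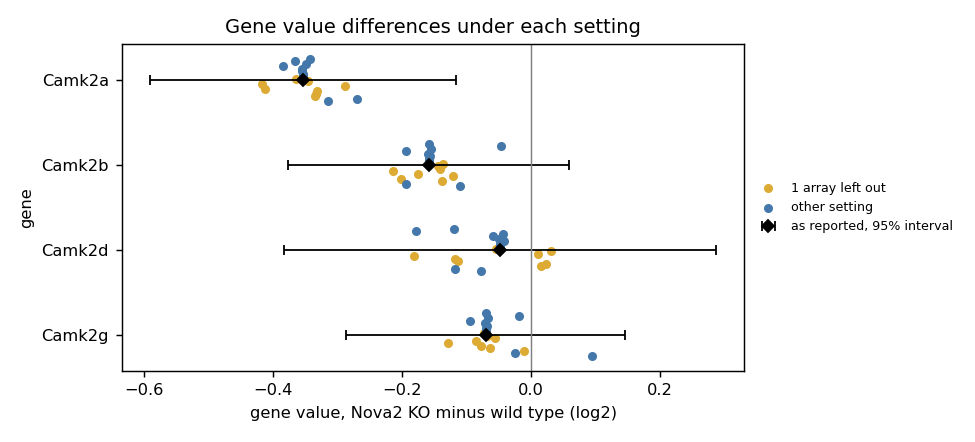
Gene value difference (log2, Nova2 KO minus wild type) on the x axis for each gene on the y axis, as reported (diamond, 95% interval from limma) and under the other settings (circles), 8 of which leave out 1 array. Camk2a stays between -0.42 and -0.27 log2, while points of Camk2d and Camk2g lie on either side of 0.

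Whether Camk2a moved apart from its relatives was tested within each array, on the difference between 2 gene values, for all 6 pairs. The Camk2a minus Camk2g value was 1.44, 1.48, 1.23 and 1.70 log2 in wild type 1 to 4 and 1.18, 1.09, 1.14 and 1.30 log2 in Nova2 KO 1 to 4. The groups overlapped by 1 array on each side, with a difference of -0.28 log2 (exact permutation p = 0.0571, two-sided, and 0.343 adjusted over the 6 pairs). The Camk2a minus Camk2b value differed by -0.19 log2 (exact permutation p = 0.286) and the Camk2a minus Camk2d value by -0.31 log2 (exact permutation p = 0.286). Without wild type 4 these 2 differences were -0.075 and -0.11 log2. The 3 pairs without Camk2a differed by -0.11 to 0.022 log2 (exact permutation p = 0.314 to 0.857). The smallest p that 70 splits allow is 0.0286, which for 1 pair alone among 6 gives an adjusted p of 0.171, so a single pair could not pass in this design whatever its difference. With the mean over probe sets as gene value, Camk2a minus Camk2b, Camk2d and Camk2g differed by -0.20, -0.24 and -0.41 log2. Each had an exact permutation adjusted p of 0.0857, as did Camk2b minus Camk2g (-0.20 log2). With the 50th percentile filter, Camk2a minus Camk2b and minus Camk2g differed by -0.32 and -0.35 log2. Both had an exact permutation adjusted p of 0.0857. No pair passed under any of the 15 other settings. Without both arrays numbered 4 too few splits remain for any pair to pass, so that setting could not decide.

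Single probe sets showed how evenly each transcript moved. None of the 135 kept probe sets was called on signal, where 0.00681% of all 293697 kept probe sets were (20), and none on the index, where 0.0134% were (26 of 194707). At an unadjusted p under 0.05, limma gave 20 of 135 on signal (14.8%), against 6.68% of all kept probe sets, and 11 of 135 on the index (8.15%), against 6.77%. Of the 20 on signal, 18 were probe sets of Camk2a and 2 of Camk2g. In all, 18 of them were lower and 2 higher in Nova2 KO, against 2.78% and 3.9% of all kept probe sets. Of the 11 on the index 1 was lower and 10 higher, against 3.3% and 3.46% of all tested probe sets. By gene, 8 of these 11 were of Camk2g, 2 of Camk2a and 1 of Camk2b. The Camk2g index is set against a gene value that was lower while most of its probe sets were higher. Probe sets of a gene read the same RNA and are not independent, so these shares describe the transcripts and not 135 separate measurements.

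In Camk2a, 30 of 31 kept probe sets were lower in Nova2 KO, by a median difference of -0.35 log2 and with quartiles of -0.40 and -0.26 log2. Among all kept probe sets 48.9% were lower by any size. In 17 of the 31 all 4 Nova2 KO values lay below all 4 wild type values, against 2.04% of all kept probe sets. These 17 ran from -0.49 to -0.24 log2. Between 28 and 31 Camk2a probe sets were lower under each other scaling, filter or left-out array. The number of probe sets kept changes with the filter. The 31 came without a filter, where all 33 count, and the 28 with the filter at the 50th percentile.

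The Camk2a probe set with the lowest signal p was 5316802, at 9.82, 9.96, 9.90 and 9.99 log2 in wild type 1 to 4 and at 9.54, 9.57, 9.26 and 9.34 log2 in Nova2 KO 1 to 4. Every Nova2 KO array lay below every wild type array, and the difference was -0.49 log2 (SE 0.12, limma adjusted p = 0.571). Its index differed by only -0.14 log2 (limma adjusted p = 0.84), and its index groups overlapped. Probe set 4900908 lay between 12.49 and 12.71 log2 in wild type and between 12.11 and 12.22 log2 in Nova2 KO. That is -0.40 log2 (SE 0.11, limma adjusted p = 0.625), without overlap and with an index difference of -0.051 log2.

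Probe set 5216450 was the exception in Camk2a. Its signal was 7.97, 8.51, 7.96 and 8.21 log2 in wild type 1 to 4 and 8.68, 8.43, 8.66 and 8.48 log2 in Nova2 KO 1 to 4. It was the 1 Camk2a probe set with a higher mean in Nova2 KO, by 0.40 log2 (SE 0.16, limma adjusted p = 0.72), and only wild type 2 lay among the Nova2 KO values. Relative to the gene, it stood at -3.73, -3.25, -3.58 and -3.72 log2 in wild type 1 to 4 and at -2.88, -2.89, -2.66 and -2.84 log2 in Nova2 KO 1 to 4. All 4 Nova2 KO values of the index lay above all 4 wild type values, as they did for 2.07% of all tested probe sets. The index differed by 0.75 log2, or 1.69-fold (SE 0.13, 95% interval 0.47 to 1.04, limma unadjusted p = 0.000237, adjusted p = 0.318), rank 145 of 194707 by unadjusted p. With diffSplice of limma, which sets a probe set against the rest of its gene and pools the spread over the probe sets of the gene, the same probe set passed (0.74 log2, limma adjusted p = 0.0188). It was the only CaMKII probe set that diffSplice called, and 506 probe sets were called in all, against 26 with limma on the index. That pooling treats probe sets read on the same 8 arrays as if they added replicates, so its p can be smaller than the number of mice supports. Over the 20 other settings its index difference ran from 0.70 to 0.86 log2, with limma adjusted p from 0.0188 to 0.75.

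Probe sets 4881418 and 5070234 had the next lowest index p in Camk2a, with 0.32 log2 (limma adjusted p = 0.731) and 0.24 log2 (limma adjusted p = 0.775). Their own signals differed by only -0.036 and -0.11 log2, while the gene value they are set against differed by -0.35 log2. Without Nova2 KO 3 the index difference of 5070234 was 0.12 log2, and its signal difference ran from -0.21 to -0.052 log2 with 1 array left out. Of the 31 Camk2a probe sets, 29 had an index difference within 0.25 log2 of 0.

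**Figure D3:**
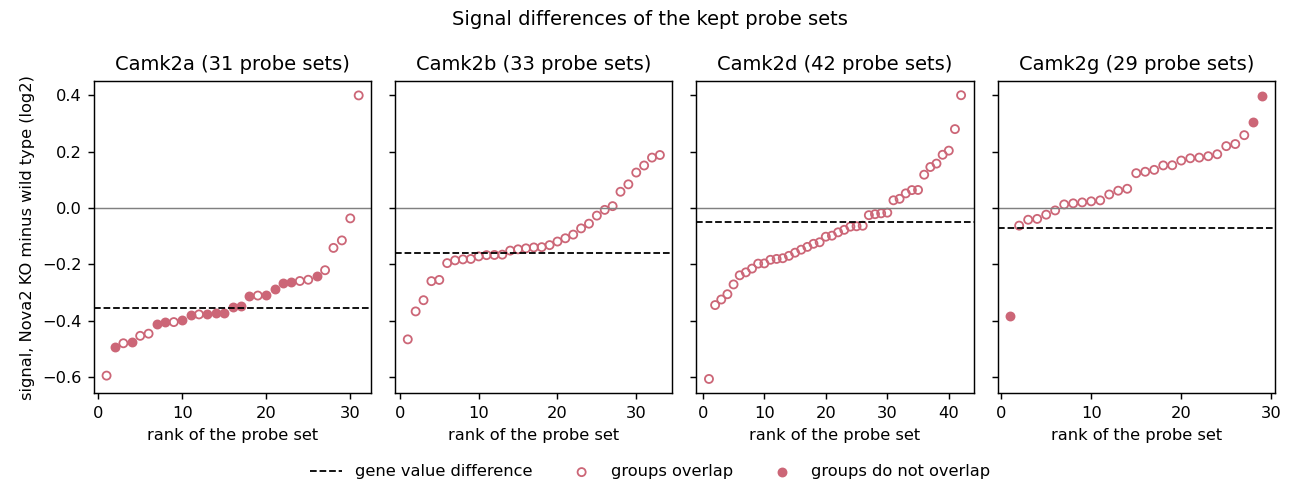
Signal difference (log2, Nova2 KO minus wild type) on the y axis for every kept probe set of each gene, ranked on the x axis from lowest to highest. Filled circles are probe sets whose groups do not overlap (17 of Camk2a and 3 of Camk2g), and the dashed line is the difference of the gene value, which in Camk2g lies below nearly all probe sets.

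In Camk2b, 26 of 33 probe sets were lower in Nova2 KO. Their median difference was -0.14 log2, within a range from -0.47 to 0.19 log2. None had groups without overlap, on signal or on the index. The lowest index p belonged to 5488682, with a signal of 11.63, 11.65, 11.49 and 11.73 log2 in wild type 1 to 4 and 11.83, 11.52, 12.03 and 11.72 log2 in Nova2 KO 1 to 4. Its groups overlapped in signal, and its index differed by 0.31 log2 (SE 0.12, limma adjusted p = 0.704). Probe sets 4349594 (0.34 log2) and 4967653 (0.24 log2) were next on the index (limma adjusted p = 0.776 and 0.812). The index difference of 4967653 was 0.13 log2 without wild type 3, and with the filter at the 50th percentile it was 0.13 log2 for 4967653 and 0.20 log2 for 5488682. On signal the lowest p belonged to 4655211 (-0.33 log2) and 5397039 (-0.26 log2), with limma adjusted p = 0.759 and 0.787.

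In Camk2d, 30 of 42 probe sets were lower, with a median of -0.092 log2 and a range from -0.61 to 0.40 log2, and none had groups without overlap. Its extremes were dim. Probe set 4691151 averaged 5.98 log2 in wild type against 6.38 log2 in Nova2 KO, with an index difference of 0.45 log2 (SE 0.21, limma adjusted p = 0.744), or 0.26 log2 without Nova2 KO 3. Probe set 4478551 was at 6.45, 6.60, 6.45 and 7.02 log2 in wild type 1 to 4 and at 6.19, 6.67, 6.15 and 5.08 log2 in Nova2 KO 1 to 4. Wild type 4 and Nova2 KO 4 held the highest and lowest of these values. Its index differed by -0.56 log2 (SE 0.32, limma adjusted p = 0.784), without wild type 4 by -0.30 log2, without Nova2 KO 4 by -0.31 log2 and without both by -0.045 log2. The brighter probe sets 5514026 and 4416520 had index differences of -0.18 and -0.19 log2 (limma adjusted p = 0.789 and 0.826). Without wild type 4 these were -0.096 and -0.080 log2, and with the filter at the 50th percentile -0.050 and -0.061 log2. No Camk2d probe set had an unadjusted p under 0.05, on signal or on the index.

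In Camk2g most probe sets lay on the higher side. Of 29, 23 were higher in Nova2 KO and 6 lower, with a median of 0.12 log2 and a range from -0.38 to 0.40 log2. The count of higher probe sets was 17 without Nova2 KO 1 and 26 without Nova2 KO 4. With quantile normalization and without wild type 4 it was 19 each. The gene value, at -0.07 log2, was lower although most probe sets were higher. In Nova2 KO 4 the gene value (10.02 log2) was set by probe set 5282948, whose neighbours in rank lay at 9.99 and 10.31 log2. Set against this lower gene value, 28 of 29 index differences lay above 0, with a median of 0.19 log2, where 50.2% of all tested probe sets were lower.

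The 1 Camk2g probe set below 0 on the index was 5282948. Its signal was 10.44, 10.57, 10.51 and 10.43 log2 in wild type 1 to 4 and 10.24, 9.92, 10.23 and 10.02 log2 in Nova2 KO 1 to 4. All 4 Nova2 KO arrays were lower, by -0.38 log2 (SE 0.13, limma adjusted p = 0.688). The index differed by -0.31 log2 (SE 0.10, 95% interval -0.54 to -0.084, limma adjusted p = 0.665), also without overlap. On Nova2 KO 4 this probe set was itself the gene value, so its index there was 0 by construction. With the mean over probe sets as gene value the index differed by -0.48 log2 and with diffSplice by -0.49 log2 (limma adjusted p = 0.361 and 0.129). The 20 other settings included a gene value without the probe set itself. Over them the difference ran from -0.49 to -0.24 log2 and the limma adjusted p from 0.129 to 0.871.

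Probe set 4533122 of Camk2g went the other way. Its signal was 9.28, 9.34, 9.38 and 9.41 log2 in wild type 1 to 4 and 9.99, 9.46, 9.90 and 9.64 log2 in Nova2 KO 1 to 4. Every Nova2 KO array was above every wild type array, most clearly arrays 1 and 3. Signal differed by 0.40 log2 (SE 0.14, limma adjusted p = 0.703) and the index by 0.47 log2 (SE 0.12, limma adjusted p = 0.576). With the mean over probe sets the index difference was 0.30 log2. Probe set 4961110 had an index difference of 0.30 log2 (SE 0.10, limma adjusted p = 0.674), and 0.13 log2 with the mean over probe sets. Groups did not overlap on the index for 7 of the 29 Camk2g probe sets, 6 above and 1 below, against 2.07% above and 2.05% below among all tested probe sets. Over the 135 CaMKII probe sets it was 8 (5.93%), against 4.12%. On signal 20 of the 135 (14.8%) did not overlap, against 5.1% of all kept probe sets. Of these 18 lay below and 2 above, where 3.05% of all kept probe sets lay above.

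**Figure D4:**
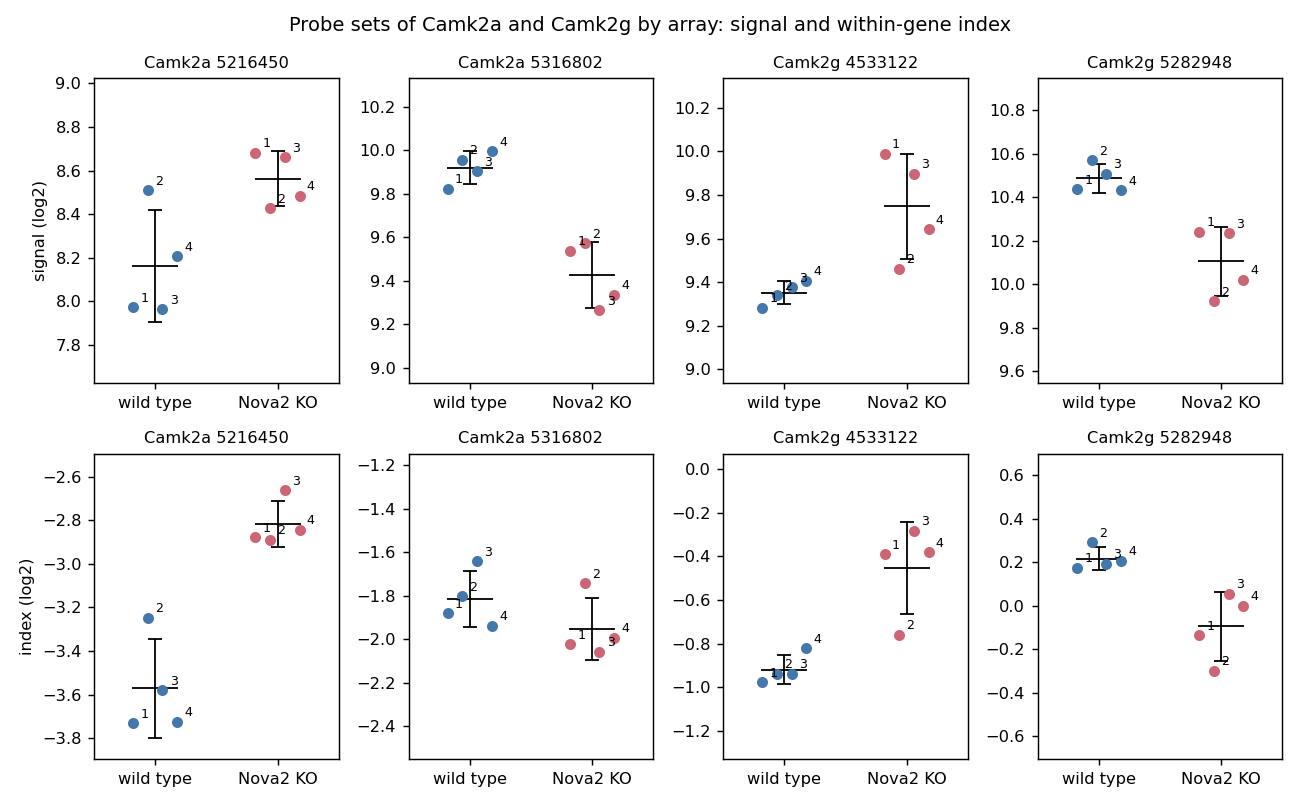
Signal (top row, log2) and within-gene index (bottom row, log2) of 2 Camk2a and 2 Camk2g probe sets on the y axis, for the 4 wild type and 4 Nova2 KO arrays with the array number beside each point, and the mean ± SD. Each panel spans 1.4 log2. The index of Camk2a 5216450 runs from -2.89 to -2.66 log2 on the Nova2 KO arrays and from -3.73 to -3.25 log2 on the wild type arrays, while Camk2a 5316802 overlaps on the index.

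Genes whose profile over the 8 arrays was most like that of a member were ranked by the root mean square difference between profiles centred on their own mean. For Camk2a these were Necab2, a neuronal calcium-binding protein gene (0.08 log2), the casein kinase gene Csnk1g2 (0.082 log2) and the protein disulfide isomerase gene Pdia2 (0.086 log2), against a median of 0.29 log2 over all genes. For Camk2b they were the potassium channel regulator gene Abcc9 (0.039 log2), the neuronal elongation factor gene Eef1a2 (0.05 log2) and the antithrombin gene Serpinc1 (0.051 log2). For Camk2d they were the synaptic calsyntenin gene Clstn2 (0.058 log2), the zinc transporter gene Slc30a5 (0.059 log2) and Lpgat1 (0.061 log2). For Camk2g they were the kinase gene Pim3 (0.027 log2), Btbd3 (0.027 log2) and the growth kinase gene Mtor (0.033 log2). Of these 12 genes none was called (limma adjusted p = 0.251 to 0.979), against 0.208% of all genes. They were picked for profiles like those of members that were not called, so this follows from the choice and adds no evidence.

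The cell makeup of the samples was read from marker lists. Markers of glutamatergic cortical neurons, the cells in which Camk2a is typical, were measured for 4 of 6 listed genes. They averaged 9.60 to 9.80 log2 in wild type against 9.66 to 9.91 log2 in Nova2 KO. The 4 genes were split: Slc17a7 was lower (-0.19 log2), while Tbr1, Neurod6 and Neurod2 were higher (0.23, 0.29 and 0.18 log2). Their limma adjusted p ran from 0.411 to 0.657. Oligodendrocyte markers averaged 9.17 to 9.45 log2 in wild type against 8.58 to 8.91 log2 in Nova2 KO, with 7 of 7 measured genes lower and 2 of them called. Over all genes, 44.6% were lower by any size and 0.117% were called lower. No measured marker was at the floor. Mean ranges overlapped between the groups for the glutamatergic list and for every other list except the oligodendrocyte one. Interneuron markers lay at 9.45 to 9.57 against 9.38 to 9.64 log2 and astrocyte markers at 9.82 to 9.89 against 9.53 to 9.87 log2. Microglia lay at 8.31 to 8.71 against 8.36 to 8.56 log2 and endothelium at 7.79 to 7.91 against 7.55 to 7.85 log2. Meninges lay at 9.19 to 9.43 against 9.01 to 9.27 log2 and choroid plexus at 10.10 to 10.17 against 9.95 to 10.26 log2. Markers of striatum (8.97 to 9.01 against 8.65 to 9.24 log2), thalamus (7.49 to 7.71 against 7.60 to 7.69 log2) and dentate gyrus (7.48 to 7.89 against 7.35 to 7.76 log2) also overlapped, as did blood (7.26 to 8.41 against 6.71 to 7.60 log2, 1 gene). In tissue, fewer cells of a type and less RNA per cell cannot be told apart. The part of these marker differences in the Camk2a difference was not tested.

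Genes that act around the kinase were read from a list of 43 by role, of which 39 were measured. None was called in either direction, against 0.117% lower and 0.0917% higher over all genes. The list had a median of -0.065 log2, against 0.022 log2 over all genes, with 28 genes lower and 11 higher. At an unadjusted p under 0.05 there were 8 lower and 2 higher, that is 10 of 39, against 3.72% lower and 7.86% higher over all genes. In 7 of the 39 all Nova2 KO arrays lay below all wild type arrays and in 2 above, against 2.5% and 5.06% of all genes. The list was chosen with earlier results of these data known, so these shares are a description only. Dropping wild type 4 moved the list median to -0.13 log2, and dropping Nova2 KO 4 to -0.023 log2.

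Upstream of CaMKII, the calmodulin gene Calm3 was at 12.38, 12.20, 12.37 and 12.32 log2 in wild type 1 to 4 and at 12.03, 11.96, 12.06 and 12.11 log2 in Nova2 KO 1 to 4. All Nova2 KO arrays were lower, by -0.28 log2 (SE 0.092, limma adjusted p = 0.283), from 3 probe sets. Gap43, a growth cone protein that holds calmodulin at the membrane, differed by 0.17 log2 (limma adjusted p = 0.537). Of the 4 measured genes of this role 1 was lower (1 to 2 with 1 array left out). The endogenous CaMKII inhibitors Camk2n1 and Camk2n2 differed by 0.0036 and 0.056 log2 (SE 0.11 and 0.15, limma adjusted p = 0.992 and 0.923).

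Among the other calmodulin-dependent kinases and their activators, 7 of 8 were lower (5 to 7 with 1 array left out). Camkk2, the kinase that activates CaMKI and CaMKIV, was at 9.62, 9.84, 9.79 and 9.31 log2 in wild type 1 to 4 and at 9.58, 9.39, 8.92 and 8.92 log2 in Nova2 KO 1 to 4. The groups overlapped, through wild type 4 and Nova2 KO 1 and 2, and differed by -0.44 log2 (SE 0.17, limma adjusted p = 0.333). Pnck, a CaMKI family kinase, differed by -0.22 log2 without overlap (limma adjusted p = 0.375).

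Of the listed anchors and docking partners of CaMKII, 9 of 9 had a lower mean in Nova2 KO, where 44.6% of all genes were lower. Their median difference was -0.18 log2. This count and median rested in part on single arrays: 6 of 9 were lower without Nova2 KO 4 (median -0.078 log2) and 6 of 9 without wild type 2 (median -0.11 log2), and 9 of 9 without both arrays numbered 4 (median -0.20 log2). Shank3, a scaffold of the postsynaptic density, was at 9.56 to 9.68 log2 in wild type and 8.77 to 9.29 log2 in Nova2 KO, a difference of -0.52 log2 (SE 0.12, limma adjusted p = 0.147). Actn2, the actin cross-linker alpha-actinin-2 that binds CaMKII and NMDA receptors, was at 8.04 to 8.52 log2 and 7.63 to 7.92 log2, a difference of -0.46 log2 (SE 0.13, limma adjusted p = 0.236). Both had every Nova2 KO array below every wild type array. The NMDA receptor subunit Grin2b, the best known docking partner of CaMKII, differed by -0.047 log2 (SE 0.17, limma adjusted p = 0.949).

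Of 8 measured substrates 6 were lower, with a median of -0.14 log2. Without Nova2 KO 4 it was 5 of 8 with a median of -0.035 log2, and without both arrays numbered 4 the median was -0.076 log2. Syn1, which tethers synaptic vesicles and releases them when CaMKII phosphorylates it, differed by -0.25 log2 without overlap (SE 0.089, limma adjusted p = 0.296), and Nos1 by -0.14 log2 (limma adjusted p = 0.604). The AMPA receptor gene Gria1 differed by 0.046 log2. Among the phosphatases, which reverse CaMKII phosphorylation, 5 of 8 were lower (4 to 5 with 1 array left out, and 3 without both arrays numbered 4). Ppp1cb, a catalytic subunit of protein phosphatase 1, differed by 0.23 log2 and the calcineurin subunit Ppp3cb by 0.21 log2, each with all Nova2 KO arrays above all wild type arrays (SE 0.10 and 0.094, limma adjusted p = 0.411 and 0.428).

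**Figure D5:**
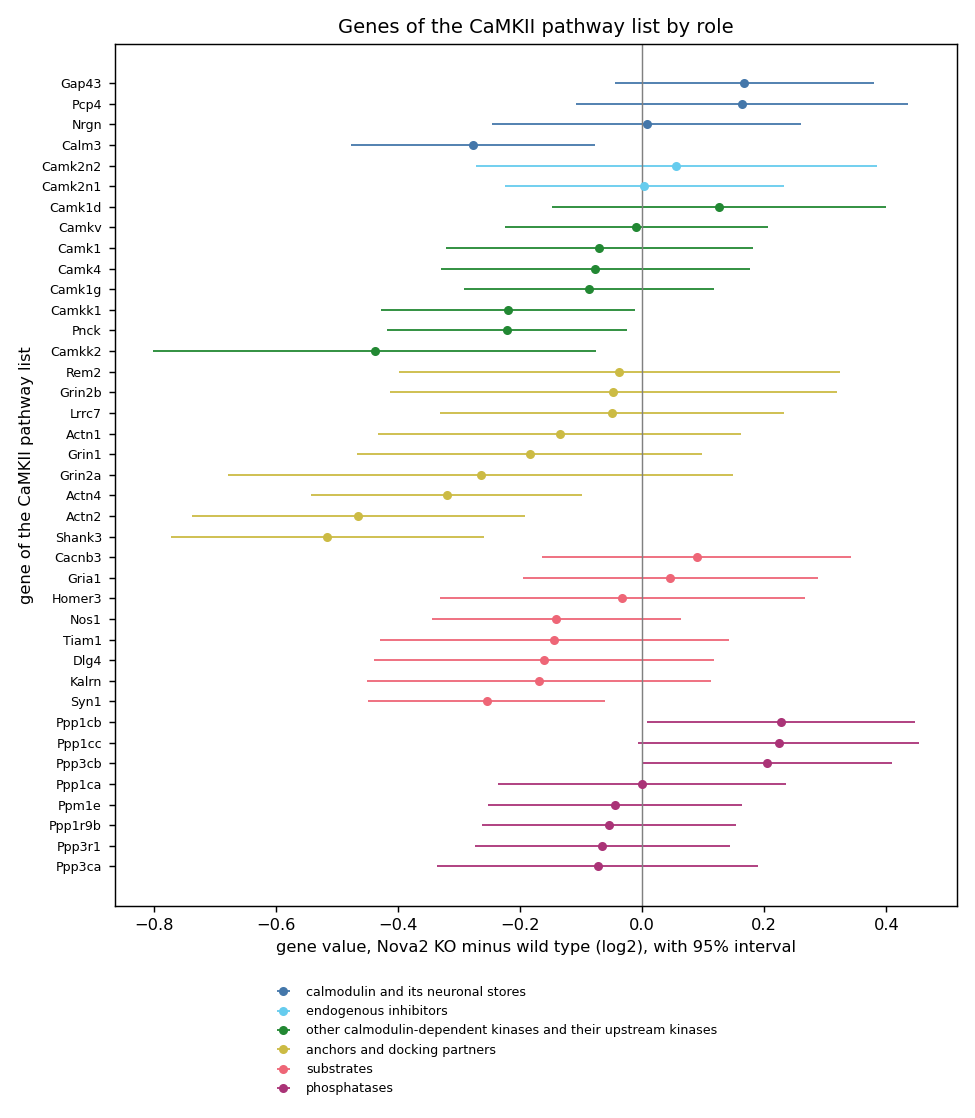
Gene value difference (log2, Nova2 KO minus wild type) on the x axis with its 95% interval from limma, not adjusted for the number of genes, for the 39 measured genes of the CaMKII pathway list on the y axis, coloured by role. With all 8 arrays the 9 anchors and docking partners lie below 0 (6 of 9 without Nova2 KO 4 or without wild type 2), and no gene passed after adjustment.

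On the index, 804 probe sets of 37 listed genes were tested and 2 were called, against 0.0134% of all tested probe sets. At an unadjusted p under 0.05 there were 55 (6.84%), against 6.77% of all tested probe sets. Both calls were in Grin1, which encodes an NMDA receptor subunit. Probe set 4423042 averaged 9.14 log2 in wild type against 10.24 log2 in Nova2 KO, and its index rose by 1.29 log2 (SE 0.085, limma adjusted p = 0.00483). Probe set 4607922 averaged 9.53 log2 in wild type against 8.42 log2 in Nova2 KO, and its index fell by 0.93 log2 (SE 0.096, limma adjusted p = 0.0439). The index differences of the CaMKII probe sets stayed below the first of these, the largest being 0.75 log2 in Camk2a.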

How the data were processed

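Exon arrays of cortex from 8 mice were used, 4 per genotype. The authors deposited 1 log2 value per probe set and array, made with PLIER per the submitters' processing notes. Its version, background correction, normalization and build are not given in the sources used here. Values were left as deposited, and the number of arrays sets the precision. Names came from the platform annotation, with symbols updated through the GRCm38.p6 gene table; all 4 member symbols were current. Gene values needed 3 kept probe sets and the index 5.

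Gene value, signal and index were fitted on all features with lmFit and eBayes of limma 3.58.1 (R 4.3.3) with two-sided tests of Nova2 KO minus wild type. In the index, 307 probe sets without variance were not tested. Scripts were tested on simulated data. Figures used matplotlib 3.10.9. Pairs of genes were compared with exact permutation tests. The labels do not say that mice came from separate litters, so p-values measure the spread between these mice. Named were all 4 members, per member the 3 probe sets with the lowest index p and the 2 with the lowest signal p, those below the filter, per role the 2 listed genes with the lowest p, and the 3 nearest profiles. Grin2b, Gria1 and the Grin1 probe sets were added after their values were seen. The members and lists were chosen with earlier results of these data known. Alternatives covered filter, scaling, offset, covariate, replicate block, variance model, gene summary, diffSplice and left-out arrays.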

Additional observations from a re-analysis of the deposited data

Results flagged for a closer look

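An array counted as apart when its gap to the nearest of the other 3 arrays of its group exceeded Dixon's 95% critical value for the group's range. Among 112 groups of values checked 3 met this, and chance alone gives about 1 in 20. Nova2 KO 1 stood above its group for the Camk2a gene value, at 11.56 log2 against 11.32 to 11.33 log2. Wild type 4 stood below its group for the Camk2b gene value, at 11.14 log2 against 11.35 to 11.38 log2. Wild type 4 also stood above its group for the index of Camk2d probe set 4478551, at -1.73 log2 against -2.87 to -2.68 log2.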

How the results depend on the processing

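No CaMKII gene value passed under any of 18 other settings, and no CaMKII probe set passed on signal under any of 17. On the index, diffSplice called 1 CaMKII probe set, Camk2a 5216450 (adjusted p = 0.0188), and the other 19 settings none. Camk2a kept its sign (-0.42 to -0.27 log2), as did Camk2b (-0.21 to -0.046 log2). Leaving out 1 array gave -0.18 to 0.031 log2 for Camk2d, and the mean over probe sets gave 0.094 log2 for Camk2g. No pair of gene values passed under any of 15 other settings, though without both arrays numbered 4 none could pass. Camk2a minus each other member kept its sign. The Camk2b minus Camk2d value reversed to 0.13 log2 with the filter at the 50th percentile. The Camk2d minus Camk2g value reversed to -0.049 without a filter, -0.16 with the filter at the 50th percentile, -0.092 without both arrays numbered 4, -0.17 log2 with the mean over probe sets and between -0.096 and 0.099 log2 with 1 array left out. The cause of these reversals was not tested. Of 623 comparisons of named probe sets with other settings, 5 reversed: the signal of 4881418 without wild type 4 (0.011), Nova2 KO 4 (0.0084) or both (0.056 log2), that of 4967653 without wild type 3 and the index of 4900908 without wild type 1. With 1 array left out these ran from -0.099 to 0.011, from -0.012 to 0.19 and from -0.12 to 0.0060 log2.

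Over all genes 25 passed as reported. Median centring gave 13, the array median as covariate 54, leaving out both arrays numbered 4 gave 11 and leaving out 1 array 6 to 16. Over all probe sets on signal 20 passed. No filter gave 6, the 50th percentile filter 88, median centring 85, quantile normalization 86, offset 1 gave 6, the array median as covariate 184, eBayes with trend and robust 165, both arrays numbered 4 left out gave 2 and 1 array left out 0 to 9. On the index 26 passed. No filter gave 15, both arrays numbered 4 left out 2, the mean over probe sets 43, diffSplice 506 and 1 array left out 10 to 17.

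With the replicate number from the sample titles entered as a block, 80 genes, 7 probe sets on signal and 4 on the index passed, none of them of CaMKII, and Camk2a had an adjusted p of 0.113. Arrays with the same number had correlated deviations from their group means of 0.13, 0.41, 0.082 and 0.52 for numbers 1 to 4. Each Nova2 KO array correlated best with the wild type array of its own number, narrowly so for Nova2 KO 3 (0.079 with wild type 2). Among wild type arrays the exception was wild type 3, which correlated best with Nova2 KO 2 (0.36). The labels do not say that numbers pair mice, so the numbers were not taken as pairs, and pairing was not excluded.

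The median SE of the index was larger in the dimmer than in the brighter probe sets of all 4 genes. It was 0.098 log2 in the brighter and 0.23 log2 in the dimmer Camk2b probe sets, and 0.16 and 0.21 log2 in those of Camk2d. The counts and medians by role of the pathway list with arrays left out, like the counts of lower Camk2a and higher Camk2g probe sets, were added after seeing the data.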
